A study of Homo sapiens with 12 samples.

Results

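The genes described here are 52 that encode the DNA replication and S phase machinery, from the proteins that mark and license origins to the polymerases, the sliding clamp and the enzymes that supply nucleotides. They were taken as a list by function, with earlier results of these data known. All 52 were measured among 11963 genes, each represented by its brightest single-symbol probe set, judged by the mean of all arrays. RCC4 is a human cell line derived from a clear cell renal carcinoma. Expression was measured on 12 Affymetrix arrays in 4 groups of 3, made up of siYAP cells with erastin, siYAP cells with DMSO, siNT cells with erastin and siNT cells with DMSO, where siYAP is an siRNA against YAP1 and siNT a non-targeting siRNA. Each siRNA was given for 2 days before erastin at 1 µM or its solvent DMSO was added for 7 hours. How many siRNA sequences were used against YAP1 is not given in the sources used here, and all the cells share 1 line.

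Before S phase the origin recognition complex, CDC6 and CDT1 load the MCM2 to MCM7 ring onto DNA, a step called licensing. At the start of S phase the kinase CDC7 with its partner DBF4, together with cyclin-dependent kinases, turns the loaded ring into the active helicase by adding CDC45 and the GINS complex. DNA polymerases, the clamp PCNA and its loader RFC then copy the strands, while ribonucleotide reductase and related enzymes keep up the supply of nucleotides. Many of these genes are known to be transcribed in a wave at the border of G1 and S phase under E2F transcription factors. YAP, which the Hippo kinases restrain, switches on transcription through TEAD factors and is known to promote proliferation. Erastin blocks the cystine importer system xc- and can set off ferroptosis.

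YAP1 stood at 4.68, 6.21 and 4.90 in siYAP cells with erastin and at 4.18, 4.88 and 4.81 in siYAP cells with DMSO, against 8.47, 8.52 and 8.65 in siNT cells with erastin and 8.55, 8.59 and 8.47 in siNT cells with DMSO, in deposited log2 values. Every siYAP array lay below every siNT array, and replicate 2 of siYAP with erastin kept the highest YAP1 of the 6 siYAP arrays. Array medians over all probe sets lay between 6.49 and 6.52, and arrays of a group correlated at 0.9955 to 0.9986 across the same probe sets. Of 8 markers of renal epithelium and carcinoma, 7 were measured, with a median level of 10.30. The 5 endothelial, 5 fibroblast and pericyte, and 4 measured immune markers had median levels of 4.33, 4.61 and 4.69 in that order. All levels below are log2 values of a gene's probe set, and since probe sets differ in brightness no level is set against that of another gene.

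After YAP silencing in DMSO all 52 genes of the list had lower levels. All of them were lower in siYAP cells than in siNT cells at an adjusted p below 0.05 in limma, against 15.6% of all genes tested, and none was higher, against 18.1%. On all 52, every siYAP array lay below every siNT array, which held for 20.7% of all genes. The median log2 difference was -0.87, a 1.83-fold fall, and on the brightest probe sets the differences ran from -1.88 for CDC45 to -0.21 for ORC3. The median over all 11963 genes was 0.02. A fall of at least 2-fold was seen for 18 of the 52, against 1.78% of all genes. As the list was chosen with earlier results known, these shares describe it and are no independent test of it. In bulk RNA a smaller share of cells in S phase and less of each transcript per cell cannot be told apart.

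**Figure D1:**
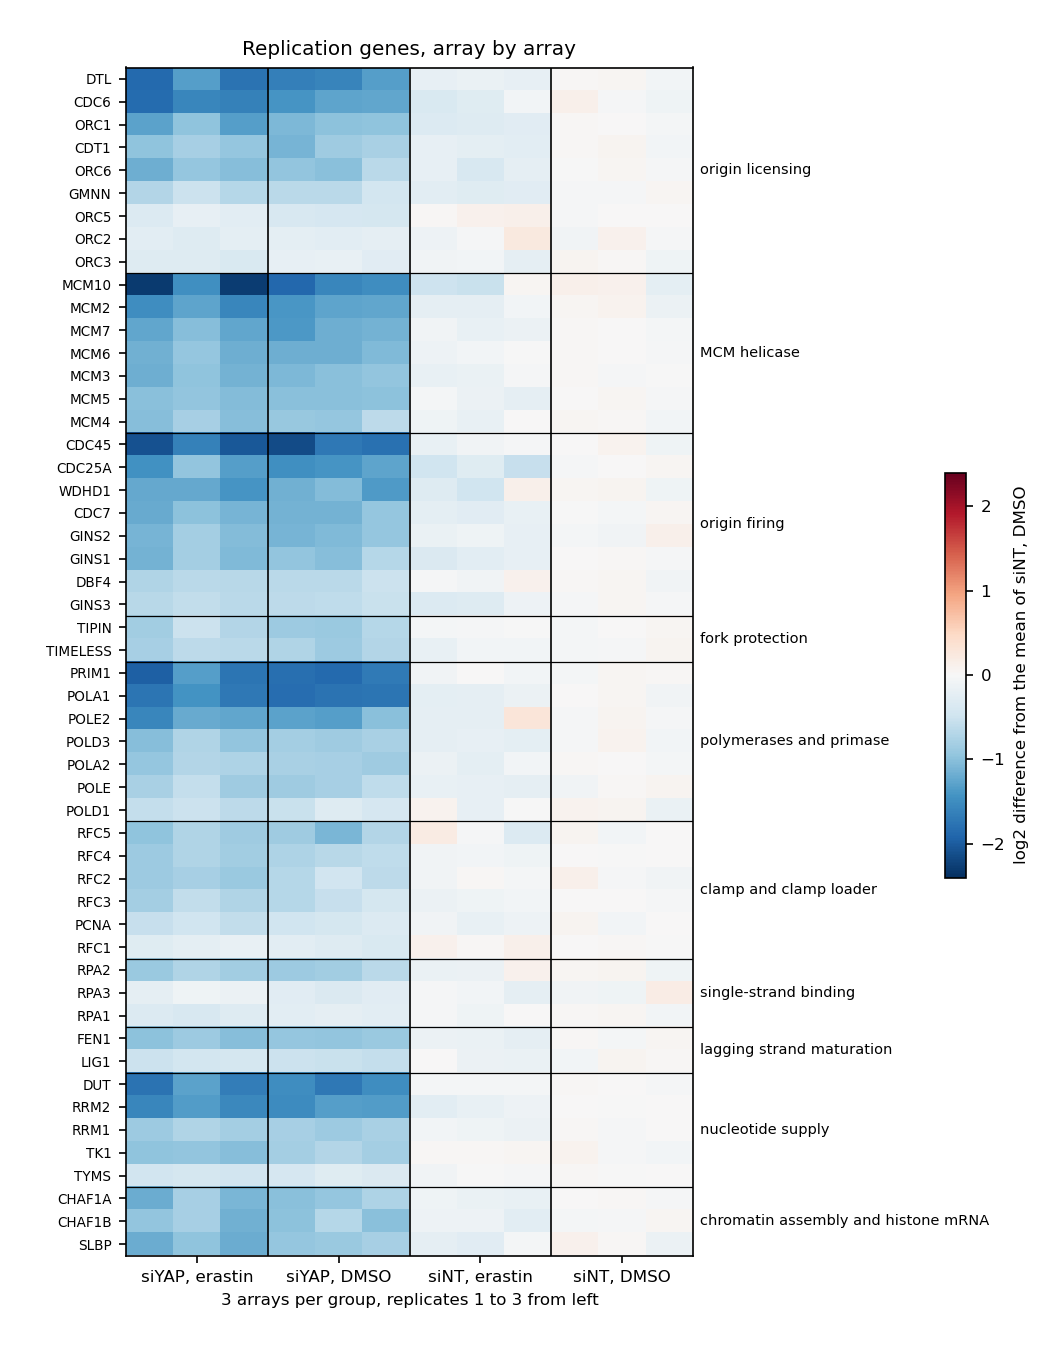
Heat map of the 52 replication genes (rows, ordered by role) on the 12 arrays (columns, by group). The colour gives each array's log2 level minus the gene's mean in siNT cells with DMSO, and the median over genes is -0.98, -0.79 and -1.02 on the siYAP arrays with erastin and -0.91, -0.89 and -0.77 on those with DMSO, against -0.13, -0.15 and -0.09 on the siNT arrays with erastin and 0.02, 0.01 and -0.03 on those with DMSO.

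The promoters of 6 of the genes that fell most are shown because they carry letters of the kind that E2F factors are known to bind. The motif searched was TTCCCGC or TTCGCGC or TTGCCGC or TTGGCGC, on both strands, in RefSeq windows of GRCh38.p14 that reach from 250 bases before to 50 bases after the annotated start of each gene. The sequences below hold 280 of those bases, 5′ to 3′ on the gene's own strand, with the E2F-type matches in capitals. They are PRIM1 (chr12:56752294-56752573, minus strand), POLA1 (chrX:24693668-24693947, plus strand), DTL (chr1:212035498-212035777, plus strand), CDC25A (chr3:48188388-48188667, minus strand), CDC6 (chr17:40287629-40287908, plus strand) and MCM2 (chr3:127598161-127598440, plus strand). They are the members with the largest falls in DMSO among those with an E2F-type match.
PRIM1: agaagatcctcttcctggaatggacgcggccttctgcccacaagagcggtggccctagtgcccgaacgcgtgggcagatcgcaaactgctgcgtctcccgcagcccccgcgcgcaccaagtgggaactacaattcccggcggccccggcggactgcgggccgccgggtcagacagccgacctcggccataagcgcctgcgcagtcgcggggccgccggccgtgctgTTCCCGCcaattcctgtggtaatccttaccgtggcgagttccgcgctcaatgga
POLA1: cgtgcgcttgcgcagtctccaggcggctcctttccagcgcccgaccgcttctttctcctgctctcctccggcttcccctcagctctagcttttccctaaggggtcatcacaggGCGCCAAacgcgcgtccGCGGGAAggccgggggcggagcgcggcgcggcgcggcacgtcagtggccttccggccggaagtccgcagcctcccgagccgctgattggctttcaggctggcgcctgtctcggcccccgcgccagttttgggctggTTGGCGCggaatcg
DTL: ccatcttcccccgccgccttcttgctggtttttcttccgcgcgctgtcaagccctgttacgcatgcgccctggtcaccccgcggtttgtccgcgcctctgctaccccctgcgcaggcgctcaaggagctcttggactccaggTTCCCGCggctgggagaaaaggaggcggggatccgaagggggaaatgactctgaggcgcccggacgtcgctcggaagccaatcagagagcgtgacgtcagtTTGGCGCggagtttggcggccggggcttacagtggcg
CDC25A: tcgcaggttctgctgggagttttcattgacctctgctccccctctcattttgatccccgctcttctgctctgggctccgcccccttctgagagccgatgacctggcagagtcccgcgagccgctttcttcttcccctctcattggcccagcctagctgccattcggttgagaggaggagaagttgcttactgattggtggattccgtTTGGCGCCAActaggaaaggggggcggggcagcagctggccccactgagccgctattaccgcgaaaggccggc
CDC6: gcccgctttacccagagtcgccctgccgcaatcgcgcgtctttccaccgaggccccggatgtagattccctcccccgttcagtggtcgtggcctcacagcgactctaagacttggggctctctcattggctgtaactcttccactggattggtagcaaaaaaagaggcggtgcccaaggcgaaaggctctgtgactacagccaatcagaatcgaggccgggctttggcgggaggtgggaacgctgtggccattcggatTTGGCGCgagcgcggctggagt
MCM2: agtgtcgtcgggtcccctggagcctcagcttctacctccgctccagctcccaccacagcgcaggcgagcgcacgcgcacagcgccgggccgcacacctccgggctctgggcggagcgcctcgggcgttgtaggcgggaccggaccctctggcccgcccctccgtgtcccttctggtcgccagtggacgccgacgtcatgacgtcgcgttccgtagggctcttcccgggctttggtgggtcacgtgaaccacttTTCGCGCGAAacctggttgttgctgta

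POLA1 holds 3 separate matches, DTL 2, and PRIM1 and CDC6 hold 1 each. In CDC25A and MCM2 the capitals are palindromes in which a match on each strand overlaps the other, so both count as 2. A RefSeq window was found for 47 of the 52 genes, and 33 of them (70.2%) held at least 1 E2F-type match. Among all measured genes the share was 18.7% (1786 of 9563 windows), and among all 27305 windows it was 13.1%. At least 2 matches were found in 15 of the 47 windows (31.9%), against 2.9% of those of all measured genes. The 54 matches lay between -223 and 38 from the start, with a median position of -20.5, and 42 of them lay within 100 bases of it.

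The E2F-type match was present in 14 of the 18 that fell at least 2-fold (77.8%) and in 19 of the 29 with a window that fell less (65.5%). CDC45, MCM10, DUT and RRM2, all among the largest falls, had none of these letters in the window, while RPA1 and ORC3, among the smallest, each had 1. Among other genes that fell at least 2-fold in DMSO, 56 of 160 windows held it (35%), and among genes that rose at least 2-fold 12 of 91 did (13.2%). The NF-Y-type letters CCAAT stood in 55.3% of the 47 windows, against 37.3% of those of all measured genes. The TEAD-type letters GGAATG stood in 14.9% against 11.3%, and the letters TTTGAA, of the CHR element known from mitotic genes, in 4.26% against 11%. These shares describe letters in a window and were not tested.

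**Figure D2:**
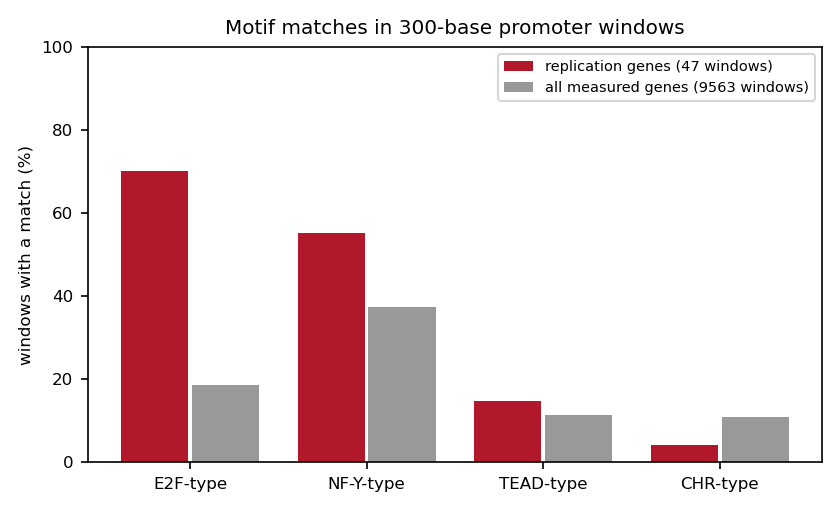
Share of promoter windows (percent, both strands searched) with at least 1 match to each motif, for 47 replication genes and for 9563 measured genes. The E2F-type bars differ most, 70.2% against 18.7%, and the TEAD-type bars least, 14.9% against 11.3%.

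Origin licensing genes differed widely in the size of their fall. DTL encodes the substrate receptor of the ubiquitin ligase that removes CDT1 in S phase. It stood at 9.55, 9.60 and 9.86 in siYAP cells with DMSO, against 11.21, 11.23 and 11.12 in siNT cells with DMSO. It fell by 1.52 (SE 0.12, adjusted p = 8.51e-07) on the log2 scale, 2.87-fold, and the lowest siNT array lay far above the highest siYAP array. ORC3, a subunit of the origin recognition complex, had the smallest difference of all 52 genes. Its level was 9.20, 9.22 and 9.11 in siYAP cells with DMSO, against 9.46, 9.41 and 9.29 in siNT cells with DMSO, a difference of -0.21 (SE 0.06, adjusted p = 0.0206). The groups were separate but only just, since 9.22 and 9.29 were neighbours, and the call was lost without replicate 1 or 2 of siNT with DMSO or replicate 3 of siYAP with DMSO. ORC2, another core subunit, fell by 0.24 (SE 0.08, adjusted p = 0.0411), a call that was lost on leaving out any 1 of the siYAP arrays or replicate 2 or 3 of siNT with DMSO. ORC1, the subunit whose level is known to vary over the human cell cycle, fell by 1.01 (SE 0.08, adjusted p = 9.55e-07), more than the core subunits ORC2, ORC3 and ORC5. ORC4, a core subunit outside the 52 that was chosen after its values were seen, stood at 10.41, 10.40 and 10.35 in siYAP cells with DMSO, against 10.26, 10.29 and 10.12 in siNT cells with DMSO. It differed by 0.16 (SE 0.07, adjusted p = 0.0922) in DMSO, with every siYAP array above every siNT array, and by 0.02 (SE 0.07, adjusted p = 0.88) under erastin, so it did not pass in either. CDC6, which loads the helicase together with CDT1, fell by 1.30 (SE 0.10, adjusted p = 5.46e-07) and CDT1 by 0.91 (SE 0.08). The second CDC6 probe set fell by 1.81 (SE 0.19). GMNN, geminin, which holds CDT1 in check, fell by 0.58 (SE 0.07), and ORC6 by 0.87 (SE 0.10). The median over the 9 genes was -0.87.

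All 7 genes of the MCM group fell, with a median of -1.14, and 5 of them fell at least 2-fold. MCM10, which is not part of the ring but helps to set the helicase in motion, stood at 6.22, 6.53 and 6.60 in siYAP cells with DMSO, against 8.23, 8.20 and 7.87 in siNT cells with DMSO. Its difference of -1.65 (SE 0.22, adjusted p = 5.97e-05) was the largest of the group and also the least precise. MCM4, a ring subunit, had the smallest, with 9.24, 9.22 and 9.52 in siYAP cells with DMSO, against 10.18, 10.17 and 10.08 in siNT cells with DMSO, a difference of -0.82 (SE 0.09, adjusted p = 1.12e-05). The 6 ring subunits MCM2 to MCM7 thus fell by between 0.82 and 1.30 on the log2 scale. MCM2 stood at 8.89, 9.03 and 9.05 in siYAP cells with DMSO, against 10.34, 10.38 and 10.15 in siNT cells with DMSO. Its difference was -1.30 (SE 0.09, adjusted p = 2.60e-07), and the siYAP arrays all lay more than 1 log2 unit below the siNT arrays.

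Genes of origin firing included the largest fall of the 52 by their brightest probe sets. A further probe set of RRM2, described with nucleotide supply, fell by more. CDC45, which joins the ring to make the active helicase, stood at 5.36, 5.80 and 5.71 in siYAP cells with DMSO, against 7.52, 7.60 and 7.40 in siNT cells with DMSO. It fell by 1.88 (SE 0.13, adjusted p = 2.94e-07), 3.68-fold, at rank 21 among the falls of all 11963 genes. GINS3, a subunit of the GINS complex, had the smallest fall of the 8 genes, with 7.13, 7.14 and 7.22 in siYAP cells with DMSO, against 7.73, 7.79 and 7.73 in siNT cells with DMSO. The difference was -0.59 (SE 0.06, adjusted p = 8.19e-06), and the gap between the groups was wider than the range within either. The other GINS subunits measured in the list, GINS1 and GINS2, fell by 0.88 (SE 0.09) and 1.03 (SE 0.09). CDC7, the kinase that starts firing, fell by 1.07 (SE 0.07) and its activator DBF4 by 0.60 (SE 0.06). CDC25A, the phosphatase that activates CDK2, stood at 6.80, 6.85 and 7.01 in siYAP cells with DMSO, against 8.24, 8.27 and 8.31 in siNT cells with DMSO, a difference of -1.39 (SE 0.11, adjusted p = 1.07e-06). Its second, dimmer probe set fell by 0.36 (SE 0.12), so the size of this fall depends on the probe set. WDHD1, which ties the helicase to polymerase alpha, fell by 1.19 (SE 0.13), and its 2 further probe sets by 1.41 and 0.59.

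TIPIN and TIMELESS form the complex that steadies a moving fork. TIPIN stood at 7.44, 7.43 and 7.63 in siYAP cells with DMSO, against 8.28, 8.32 and 8.36 in siNT cells with DMSO, a difference of -0.82 (SE 0.08, adjusted p = 4.07e-06). TIMELESS, at 7.59, 7.45 and 7.61 in siYAP cells with DMSO, against 8.28, 8.29 and 8.39 in siNT cells with DMSO, fell by 0.77 (SE 0.07, adjusted p = 1.84e-06). The falls of these partners differed by less than either standard error.

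Among polymerases and primase, PRIM1 and POLA1, catalytic subunits of the enzymes that start each new strand, fell most. PRIM1, the catalytic primase subunit, stood at 7.34, 7.29 and 7.45 in siYAP cells with DMSO, against 9.10, 9.20 and 9.17 in siNT cells with DMSO. It fell by 1.79 (SE 0.12, adjusted p = 2.53e-07), 3.47-fold. POLA1, the catalytic subunit of polymerase alpha, stood at 6.43, 6.47 and 6.49 in siYAP cells with DMSO, against 8.26, 8.30 and 8.17 in siNT cells with DMSO, a difference of -1.78 (SE 0.08, adjusted p = 1.62e-08). In both genes the arrays of a group lay close together and the groups were far apart. POLD1, the catalytic subunit of the lagging strand polymerase delta, had the smallest fall of the 7, with 7.49, 7.72 and 7.62 in siYAP cells with DMSO, against 8.12, 8.09 and 7.87 in siNT cells with DMSO. That difference was -0.42 (SE 0.09, adjusted p = 0.00277). POLE, the catalytic subunit of the leading strand polymerase epsilon, fell by 0.76 (SE 0.08) and its accessory subunit POLE2 by 1.21 (SE 0.14). POLA2 and POLD3, accessory subunits of polymerases alpha and delta, fell by 0.81 (SE 0.07) and 0.82 (SE 0.07).

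The clamp with its loader and the single-strand binding proteins had the smallest median differences of the roles, -0.57 and -0.29. RFC5, a small subunit of the clamp loader, stood at 10.21, 9.96 and 10.35 in siYAP cells with DMSO, against 11.13, 11.00 and 11.06 in siNT cells with DMSO, a difference of -0.89 (SE 0.13, adjusted p = 1.16e-04). RFC1, the large subunit, stood at 8.84, 8.79 and 8.73 in siYAP cells with DMSO, against 9.09, 9.11 and 9.08 in siNT cells with DMSO, a difference of -0.30 (SE 0.05, adjusted p = 6.18e-04). Neither of the 2 further RFC1 probe sets passed the test in DMSO. PCNA, the sliding clamp, stood at 11.86, 11.91 and 12.01 in siYAP cells with DMSO, against 12.40, 12.28 and 12.35 in siNT cells with DMSO. It fell by 0.42 (SE 0.06, adjusted p = 1.26e-04), and RFC2, RFC3 and RFC4 by 0.59, 0.54 and 0.67 on the log2 scale. None of these 6 genes reached 2-fold. The further RFC5 probe sets fell by 0.41 (SE 0.07) and 0.56 (SE 0.15), less than RFC4, so the order within the loader depends on the probe set. Of the RPA subunits, which coat single-stranded DNA, RPA2 fell most, with 7.65, 7.68 and 7.88 in siYAP cells with DMSO, against 8.57, 8.58 and 8.42 in siNT cells with DMSO, a difference of -0.79 (SE 0.09, adjusted p = 1.39e-05). RPA1, the largest subunit, had 10.96, 11.00 and 10.97 in siYAP cells with DMSO, against 11.24, 11.26 and 11.15 in siNT cells with DMSO, a difference of -0.24 (SE 0.05, adjusted p = 0.00357). RPA3, the smallest, had 10.55, 10.48 and 10.55 in siYAP cells with DMSO, against 10.74, 10.71 and 11.00 in siNT cells with DMSO, a difference of -0.29 (SE 0.08, adjusted p = 0.0136) that did not pass without replicate 2 of siYAP with DMSO.

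FEN1, the nuclease that trims the flaps between Okazaki fragments, stood at 11.14, 11.13 and 11.18 in siYAP cells with DMSO, against 12.09, 12.02 and 12.11 in siNT cells with DMSO. It fell by 0.92 (SE 0.05, adjusted p = 1.09e-07). LIG1, the ligase that seals them, had 8.16, 8.14 and 8.10 in siYAP cells with DMSO, against 8.61, 8.74 and 8.71 in siNT cells with DMSO, a difference of -0.55 (SE 0.06, adjusted p = 1.11e-05). For both enzymes the groups were separated by more than the range within either group.

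Nucleotide supply held large and small falls together. DUT, the dUTPase that keeps uracil out of DNA, stood at 10.76, 10.54 and 10.77 in siYAP cells with DMSO, against 12.29, 12.26 and 12.23 in siNT cells with DMSO. It fell by 1.57 (SE 0.11, adjusted p = 2.58e-07), 2.97-fold, and its 2 further probe sets fell by 1.53 and 1.51. TYMS, thymidylate synthase, had 12.07, 12.19 and 12.14 in siYAP cells with DMSO, against 12.50, 12.47 and 12.48 in siNT cells with DMSO, a difference of -0.35 (SE 0.05, adjusted p = 1.14e-04). Its other probe set, at a difference of -0.05, did not pass. RRM2, the regulated subunit of ribonucleotide reductase, stood at 9.55, 9.73 and 9.71 in siYAP cells with DMSO, against 11.06, 11.05 and 11.07 in siNT cells with DMSO, a difference of -1.40 (SE 0.07, adjusted p = 3.26e-08). Its second probe set, with a mean level of 9.36, fell by 2.91 (SE 0.17, adjusted p = 1.15e-07) under erastin and fell by 3.01 (SE 0.17, adjusted p = 8.37e-08) in DMSO, in limma over all probe sets. No other probe set of the 52 genes fell by as much, so the size of the RRM2 fall depends on the probe set. RRM1, the large subunit, fell by 0.81 (SE 0.05) and TK1, thymidine kinase, by 0.78 (SE 0.06).

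The 3 genes of chromatin assembly and histone mRNA moved by nearly the same amount. CHAF1A, the large subunit of the chaperone CAF-1 that places histones behind the fork, stood at 8.42, 8.49 and 8.68 in siYAP cells with DMSO, against 9.42, 9.45 and 9.40 in siNT cells with DMSO, a difference of -0.89 (SE 0.09, adjusted p = 8.98e-06). Its partner CHAF1B fell by 0.89 (SE 0.10). SLBP, which binds the stem-loop of replication-dependent histone mRNAs, had 10.02, 10.05 and 10.15 in siYAP cells with DMSO, against 11.05, 10.97 and 10.80 in siNT cells with DMSO, a difference of -0.87 (SE 0.09, adjusted p = 6.14e-06).

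**Figure D3:**
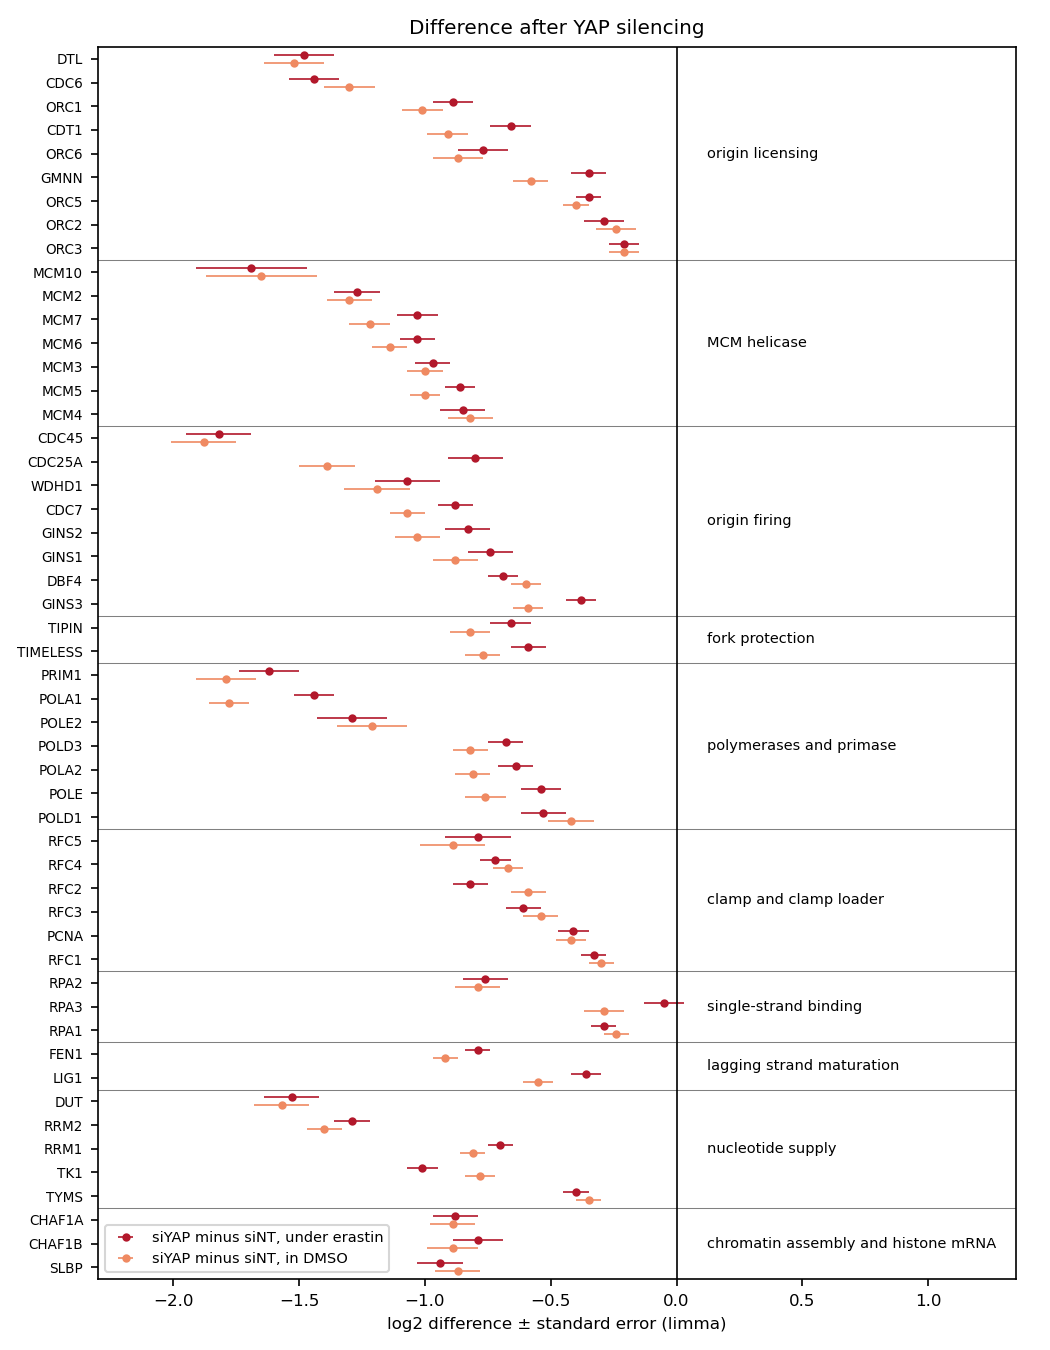
Log2 difference after YAP silencing (siYAP minus siNT, horizontal axis, with limma's standard error) for each of the 52 genes, under erastin and in DMSO, grouped by role. Every point lies below 0, and RPA3 under erastin, at -0.05 with SE 0.08, has the only bar that crosses it.

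Under erastin YAP silencing gave lower levels for most of the same genes on other arrays. In limma 51 of the 52 genes were lower in siYAP cells with erastin than in siNT cells with erastin, against 14.8% of all genes, and none was higher, against 20%. The arrays of the groups were fully apart for 51 genes (19.7% of all genes), and 14 fell at least 2-fold (1.44% of all genes). The median difference was -0.79, a 1.73-fold fall, with all genes at 0.01. The exception was RPA3, with 10.60, 10.72 and 10.68 in siYAP cells with erastin, against 10.80, 10.75 and 10.60 in siNT cells with erastin. It differed by -0.05 (SE 0.08, adjusted p = 0.688) and its arrays overlapped.

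By the brightest probe sets CDC45 again had the largest fall, with 5.42, 5.89 and 5.48 in siYAP cells with erastin, against 7.33, 7.42 and 7.49 in siNT cells with erastin, a difference of -1.82 (SE 0.13, adjusted p = 4.30e-07). MCM10 stood at 5.80, 6.62 and 5.82 in siYAP cells with erastin, against 7.60, 7.57 and 8.15 in siNT cells with erastin, a difference of -1.69 (SE 0.22, adjusted p = 4.72e-05). On both genes replicate 2 of the siYAP group was the highest of its 3 arrays. PRIM1 fell by 1.62 (SE 0.12, adjusted p = 5.55e-07), DUT by 1.53 (SE 0.11) and DTL by 1.48 (SE 0.12). TK1 stood at 8.51, 8.54 and 8.46 in siYAP cells with erastin, against 9.51, 9.50 and 9.53 in siNT cells with erastin, a difference of -1.01 (SE 0.06, adjusted p = 7.78e-08), which passed 2-fold here. CDC25A, at 6.81, 7.32 and 6.95 in siYAP cells with erastin, against 7.80, 7.97 and 7.72 in siNT cells with erastin, fell by 0.80 (SE 0.11, adjusted p = 1.11e-04), and its second probe set, with a difference of -0.31, did not pass (adjusted p = 0.0668).

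By role, the median differences under erastin were -1.03 for the MCM group, -1.01 for nucleotide supply, -0.88 for chromatin assembly and histone mRNA and -0.82 for origin firing. They were -0.68 for polymerases and primase, -0.67 for the clamp and its loader, -0.66 for licensing, -0.62 for fork protection, -0.58 for FEN1 and LIG1 and -0.29 for RPA. In DMSO the same roles had -1.14, -0.81, -0.89 and -1.05, then -0.82, -0.57, -0.87, -0.79, -0.74 and -0.29, in the same order. RPA had the smallest median in both. A total of 51 genes were lower in both comparisons, which share no array, and 13 fell at least 2-fold in both. Over all genes the share lower in both was not counted, but it cannot exceed the 14.8% lower under erastin. For called falls of at least 2-fold it cannot exceed 1.44%. Across the 52 genes the differences under erastin and in DMSO correlated at r = 0.94 (Spearman's rho 0.92), and across all genes at r = 0.91 (rho 0.75), where genes are not independent of each other. The fall was larger in DMSO for 37 of the 52. The difference under erastin minus that in DMSO lay below 0 for the other 28.8%, against 47.6% of all genes. This difference was called for no gene in limma. Its median over the 52, 0.09, was 0.01 without replicate 2 of siYAP with erastin.

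An RNA quality value of ACTB differed between the groups compared under erastin but overlapped in DMSO, and single arrays stood out in these genes. The log2 difference between the 3' and 5' control probe sets of ACTB averaged 3.54 ± 0.18 in siYAP cells with erastin and 2.26 ± 0.69 in siNT cells with erastin (SD, n = 3 each), and those arrays did not overlap. It averaged 2.59 ± 0.95 in siYAP cells with DMSO and 2.68 ± 0.28 in siNT cells with DMSO, where the arrays overlapped. For GAPDH all 4 group means lay between 0.15 and 0.22. The part of these control values in the falls under erastin was not tested. Replicate 2 of siYAP with erastin, the array with YAP1 at 6.21, was the highest of its 3 for 46 of the 52 genes (88.5%, against 31.7% of all genes). Replicate 3 of siYAP with DMSO was the highest for 37 (71.2%, against 32.5%), with YAP1 at 4.81 beside 4.18 and 4.88. Leaving out any single array left 50 to 52 genes lower in DMSO and 50 to 51 under erastin.

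**Figure D4:**
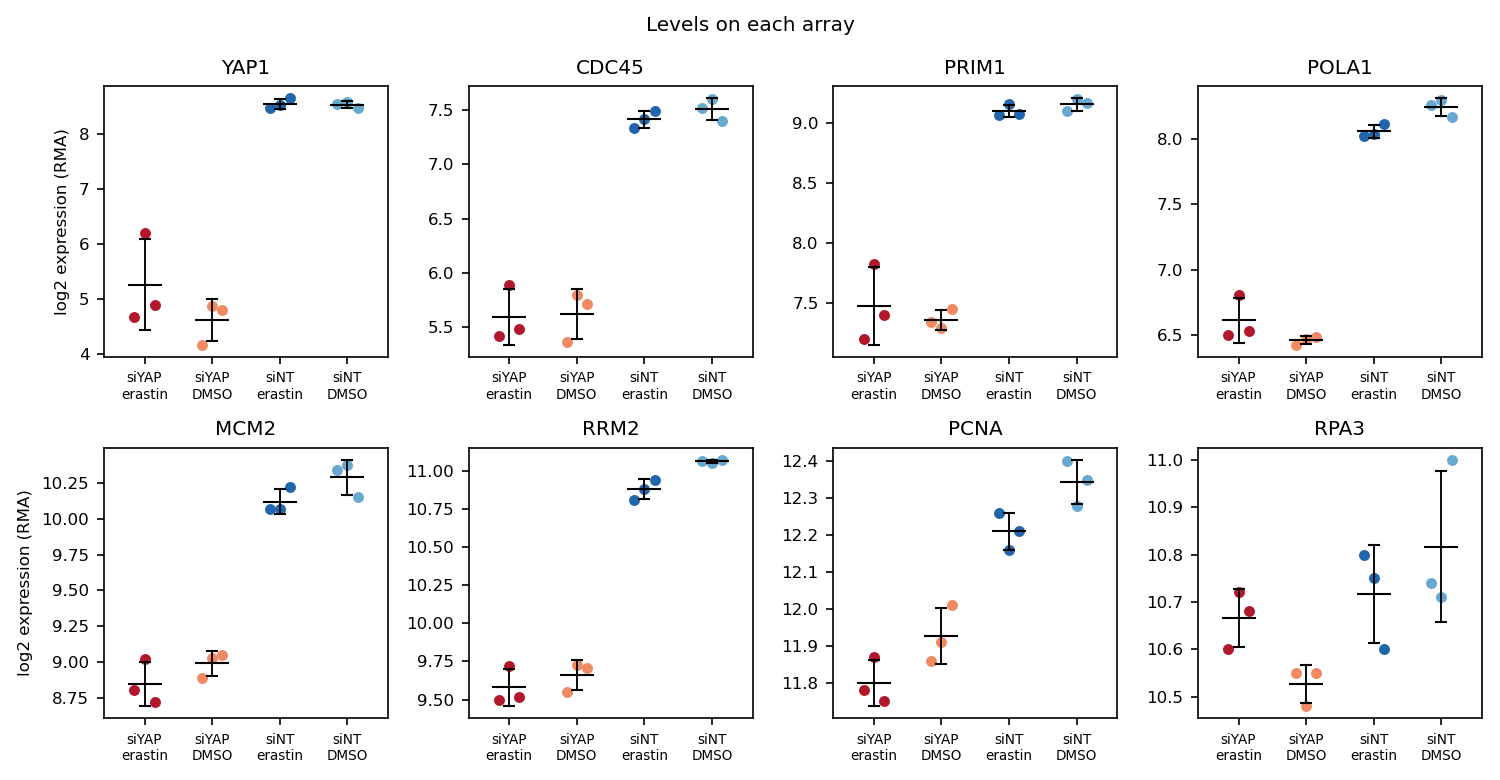
Log2 level of YAP1 and 7 replication genes on each of the 12 arrays (points), with the group mean and SD (bars, n = 3), for siYAP with erastin, siYAP with DMSO, siNT with erastin and siNT with DMSO from left to right. Each panel has its own vertical range, which does not start at 0. CDC45, PRIM1 and POLA1 have all siYAP arrays well below all siNT arrays, while for RPA3 the erastin groups overlap.

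Erastin gave small differences in these genes in siNT cells. At an adjusted p below 0.05 in limma 0 of the 52 passed, where 0.752% of all genes did and 0.267% were lower. The median difference, siNT with erastin minus siNT with DMSO, was -0.13, with a range from -0.45 to 0.09, and 47 of the 52 lay below 0, against 51.6% of all genes. At an unadjusted p below 0.05 there were 17 of the 52 (32.7%, against 10.6% of all genes). For 28 of the 52 (53.8%) every erastin array lay below every DMSO array, against 8.51% of all genes. The smallest p-values were those of GMNN, GINS3, CDC25A and ORC1.

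GMNN stood at 10.68, 10.64 and 10.67 in siNT cells with erastin, against 10.92, 10.91 and 10.99 in siNT cells with DMSO, a difference of -0.28 (SE 0.07, adjusted p = 0.0949). CDC25A had 7.80, 7.97 and 7.72 with erastin, against 8.24, 8.27 and 8.31 with DMSO, a difference of -0.45 (SE 0.11, adjusted p = 0.122). In both genes the erastin arrays were all lower than the DMSO arrays. GINS3 differed by -0.25 (SE 0.06, adjusted p = 0.105) and ORC1 by -0.29 (SE 0.08, adjusted p = 0.172). With a trended and robust variance 2 of the 52, GMNN and CDC25A, passed as lower. Without replicate 3 of siNT with erastin GINS3 passed, and without replicate 2 of siYAP with erastin, which shares only the spread of the fit, CDC25A and ORC1 passed.

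In siYAP cells 0 of the 52 passed with erastin in limma as well, with 0.334% of all genes called and 0.00836% lower, and 8 of the 52 had an unadjusted p below 0.05 (15.4%, against 10.7%). The median difference was -0.06. For 7 genes (13.5%, against 10.4% of all genes) every erastin array lay below every DMSO array. That count rests on replicate 2 of siYAP with erastin, since without it there were 27, against 14.7% of all genes, and the median was -0.11. Without replicate 1 of siYAP with DMSO there were 12. The share of all genes without that array is not given here, so the 12 is not read against 10.4%. CDC6 stood at 5.95, 6.23 and 6.18 in siYAP cells with erastin, against 6.39, 6.53 and 6.56 in siYAP cells with DMSO, a difference of -0.38 (SE 0.10, adjusted p = 0.208). RFC2 differed by -0.26 (adjusted p = 0.255), TK1 by -0.19 (adjusted p = 0.278) and SLBP by -0.25 (adjusted p = 0.368).

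**Figure D5:**
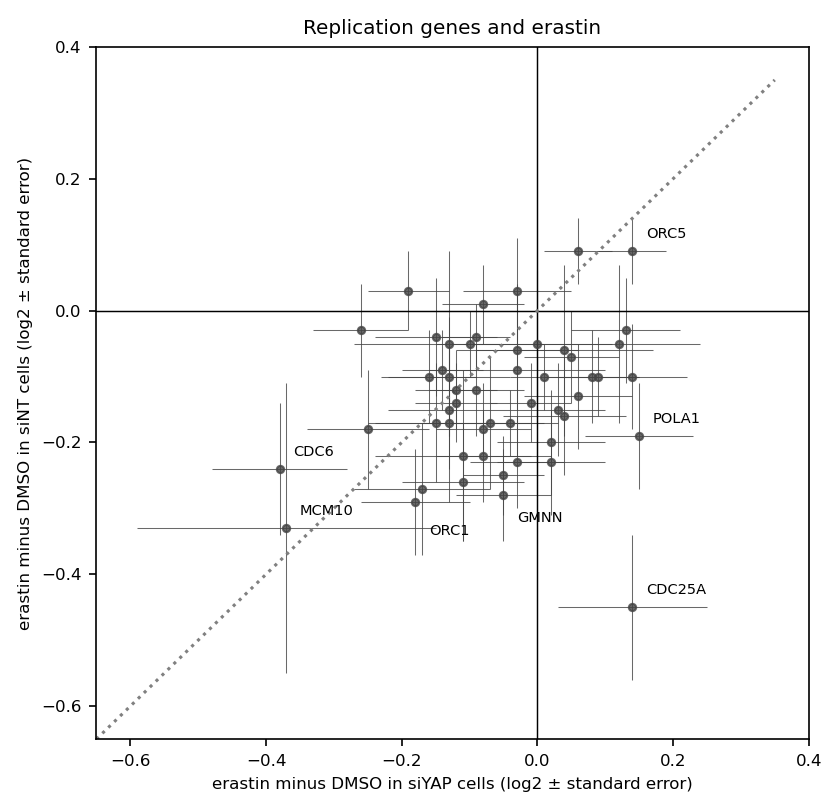
Log2 difference with erastin (erastin minus DMSO) for the 52 genes in siYAP cells (horizontal axis) and in siNT cells (vertical axis), with limma's standard errors and a dotted line where both are equal. The medians are -0.06 in siYAP cells and -0.13 in siNT cells, and CDC25A in siNT cells has the largest difference there, -0.45.

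The test of whether erastin acted differently after silencing called 0 of the 52 genes and 0 of 11963 in limma. At an unadjusted p below 0.05 there were 8 of the 52 (15.4%, against 9.86% of all genes). The median of this difference of differences was 0.09, and 0.01 without replicate 2 of siYAP with erastin. CDC25A had the largest, 0.59 (SE 0.16, adjusted p = 0.41), followed among the smallest p-values by POLA1 at 0.34 (adjusted p = 0.428), TK1 at -0.23 (adjusted p = 0.435) and GMNN at 0.22 (adjusted p = 0.481). The second CDC25A probe set differed by -0.31 under erastin and -0.36 in DMSO after silencing. These p-values do not show that the response was the same in siYAP and siNT cells.

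Other genes of the same processes fell in part and rose in few cases. Of 22 measured replication factors outside the 52, 16 were lower in siYAP cells under erastin and 16 in DMSO, and 1 was higher under erastin. The riser was POLD4, a small subunit of polymerase delta, at 0.44 (adjusted p = 8.67e-04). TOP2A, the topoisomerase that untangles replicated DNA, fell by 1.19 under erastin and 1.38 in DMSO on the log2 scale. The nuclease and helicase gene DNA2 fell by 1.25 and 1.07, and DSCC1, of an alternative clamp loader, by 1.12 and 1.07. POLE3, a subunit of polymerase epsilon, fell by 0.98 under erastin, and GINS4, the remaining GINS subunit, by 0.96 in DMSO. Of 20 further genes of nucleotide supply, 10 were lower and 2 higher under erastin, and 11 were lower and 1 higher in DMSO. Over all genes 14.8% were lower and 20% higher under erastin, and 15.6% were lower and 18.1% higher in DMSO.

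DCK, deoxycytidine kinase, which salvages nucleosides, stood at 6.39, 7.00 and 6.43 in siYAP cells with erastin, against 8.88, 8.62 and 8.77 in siNT cells with erastin. In DMSO it stood at 6.63, 6.69 and 6.76 in siYAP cells, against 8.92, 8.89 and 8.89 in siNT cells. It fell by 2.15 (SE 0.13, adjusted p = 1.32e-07) under erastin and by 2.21 (SE 0.13, adjusted p = 1.04e-07) in DMSO. That was more than the brightest probe set of any of the 52 genes and less than the second probe set of RRM2. SAMHD1, which breaks down deoxynucleotides, was among the few that rose, with 8.15, 8.23 and 8.27 in siYAP cells with erastin, against 7.08, 6.86 and 7.21 in siNT cells with erastin. With DMSO it had 8.29, 8.21 and 8.34 in siYAP cells, against 7.15, 7.38 and 7.32 in siNT cells. It rose by 1.16 (SE 0.09, adjusted p = 6.14e-07) under erastin and by 0.99 (SE 0.09, adjusted p = 2.10e-06) in DMSO. CMPK1, a pyrimidine nucleotide kinase, fell by 1.16 and 1.10, and DTYMK, thymidylate kinase, by 0.75 and 0.90, under erastin and in DMSO.

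Of 8 chromatin genes coupled to replication, 7 were lower in both comparisons, against 14.8% of all genes under erastin and 15.6% in DMSO. HELLS, a chromatin remodeller, fell by 1.83 under erastin and fell by 2.03 in DMSO, the histone chaperone NASP by 0.85 and 1.01 and ASF1B by 0.87 and 0.85. RBBP4, a histone-binding subunit of CAF-1, fell by 0.75 under erastin, and the maintenance methyltransferase gene DNMT1 by 0.49 in DMSO. ASF1A, the paralogue of ASF1B, rose by 0.31 in DMSO (adjusted p = 0.00342) and differed by 0.04 under erastin (adjusted p = 0.694). Of 9 checkpoint genes, 6 were lower and 1 higher under erastin, against 14.8% and 20% of all genes. In DMSO 7 were lower, against 15.6%. CDC25C, a mitotic phosphatase, fell by 1.33 and 1.51, CDC25B by 0.66 and 0.81, the kinase gene CHEK1 by 0.59 and 0.52 and RAD9A, of the checkpoint clamp, by 0.40 and 0.48.

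Among 23 regulators of the G1 to S transition, 16 were lower and 1 higher under erastin, against 14.8% and 20% of all genes. In DMSO 14 were lower and 1 higher, against 15.6% and 18.1%. The riser was TFDP2, a partner of E2F factors. SKP2, a ubiquitin ligase subunit that marks the CDK inhibitor encoded by CDKN1B, fell by 2.18 (SE 0.15, adjusted p = 2.85e-07) under erastin and by 2.38 (SE 0.15, adjusted p = 1.31e-07) in DMSO. E2F5, usually counted as a repressor, fell by 2.15 under erastin and fell by 2.19 in DMSO, and RBL1, a pocket protein of the RB family, by 1.28 and 1.57. CCNE2, cyclin E2, fell by 1.84 and 1.86, and CCNE1, cyclin E1, by 0.62 and 0.95. CDKN1B itself differed by -0.03 (SE 0.06, adjusted p = 0.745) under erastin and by 0.09 (SE 0.06, adjusted p = 0.237) in DMSO, neither passing the test. With erastin in siNT cells 1 of the 23 was lower and 1 higher, where 0.267% of all genes were lower and 0.752% called in either direction. The lower 1 was CCNE1, by 0.32 (SE 0.06, adjusted p = 0.0456 in limma). CDKN1A had the largest rise of the 23 there, at 10.45, 10.37 and 10.40 with erastin, against 10.20, 10.18 and 10.14 with DMSO.

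Further probe sets bear on how far single values hold. Of the 52 genes, 32 had 1 probe set with a single symbol and 20 had 28 further sets between them. Of these 28, 23 were lower and 5 not called under erastin, and the same counts held in DMSO, with none higher in either. In DMSO the 5 belonged to ORC5, RFC1 with 2, RPA1 and TYMS, and under erastin to ORC5, CDC25A, WDHD1, RFC1 and TYMS. The probe sets of ORC6, DUT and CHAF1A are of a kind that can cross-hybridise with related transcripts. CHAF1A's further sets fell by 0.77 and 0.95 in DMSO.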

How the data were processed

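Total RNA of 12 RCC4 samples was measured on single-channel Affymetrix arrays. The deposited log2 values came from RMA in Affymetrix Expression Console, according to the submitters' processing notes, whose versions the sources used here do not name. This method equalises the arrays, which hides any change in total RNA, and it compresses differences of dim genes. Neither the array type nor a scan date was found in the labels, and batches were not tested.

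Of 22277 probe sets, 62 were controls, and the platform annotation gave 1 symbol to 19065, several to 1043 and none to 2107. Each of 11963 genes was taken by its single-symbol probe set of highest mean, and 4310 genes had more than 1. Groups came from the sample titles. The labels call the samples biological triplicates without saying whether their cultures were separate. The p-values therefore cover the spread between samples that may be technical. Precision is limited by having 3 arrays a group, and the median standard error was 0.078. All 12 arrays entered 1 fit in limma 3.58.1 under R 4.3.3 (lmFit and eBayes), with Benjamini-Hochberg adjustment over all genes and a threshold of 0.05. The test was checked on simulated data.

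The members and lists were chosen with earlier results of these data known. Of each role the largest and smallest fall in DMSO were named with their arrays, the 4 smallest p-values in each erastin comparison, and up to 4 called genes of each further list. Promoter windows were RefSeq's, of GRCh38.p14, and the windows of MCM4, MCM5, POLD3, RPA2 and RPA3 were not used here. Alternatives tried were to fit just the arrays compared, to block on the replicate number, median centring, quantile normalization, dropping the 30% of probe sets that were dimmest, using the mean or the second brightest probe set of a gene, a trended and robust variance, and leaving out each array.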

Additional observations from a re-analysis of the deposited data

How the results depend on the processing

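The direction of the members' falls after silencing held under the alternatives, while for some genes their size depended on the probe set. Leaving out each array in turn gave 50 to 52 members lower in DMSO, with 3424 to 4311 of all genes called and a median of -0.91 to -0.82, and 50 to 51 lower under erastin, with 3443 to 4256 genes and a median of -0.84 to -0.73. Members with every siYAP array below every siNT array numbered 52 in each case in DMSO and 51 to 52 under erastin. The shares of all genes were 20.7% and 19.7% with all arrays kept. Under erastin the share was 22.3% without replicate 2 of siYAP with erastin. No value followed through the alternatives turned its direction. Those followed were all members in both silencing comparisons, and the members with the smallest p-values in the erastin comparisons and the interaction. Genes named outside the 52 were not followed, so whether their directions held was not tested. The deviations of same-numbered samples correlated at -0.09 to 0.19 for silencing and at -0.42 to -0.03 for erastin, so no comparison had every correlation over 0.1. The samples were therefore not treated as paired, and whether a number marks a shared culture or batch was not tested. With the replicate number as a block 52 members were lower in DMSO and 51 under erastin, and 0 with erastin in siNT or siYAP cells and 0 in the interaction. With the second brightest probe set of genes with more than 1, 47 members were lower in DMSO and 49 under erastin. ORC5, RFC1, RPA1, TYMS and ORC2, which has a single probe set and kept its difference of -0.24, did not pass in DMSO, and CDC25A and TYMS did not pass under erastin, beside RPA3. That setting moved RRM2 in DMSO to -3.01 beside -1.40, CDC25A to -0.36 beside -1.39 and RFC5 to -0.41 beside -0.89. ORC3 lost its call under erastin without replicate 1 or 2 of siNT with erastin or replicate 3 of siYAP with erastin.

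The calls for erastin rested more on the settings. In siNT cells 90 of all genes passed, against 15 with only the arrays compared, 38 with the replicate block, 138 without the dimmest 30% of probe sets, 42 with the second brightest probe set and 161 with a trended and robust variance, which called 2 members lower. In siYAP cells 40 passed, against 26, 24 and 74 with only the arrays compared, the second brightest probe set and the trended and robust variance, and the last gave 8 genes for the interaction. Leaving out each array gave 0 to 2 members lower, 34 to 76 genes and a median of -0.15 to -0.11 in siNT cells, and 0 members, 20 to 45 genes and a median of -0.11 to -0.03 in siYAP cells. Members with every erastin array below numbered 28 to 37 in siNT and 7 to 27 in siYAP cells. With all arrays kept these were 28 and 7, against 8.51% and 10.4% of all genes. The 27 stood against 14.7% of all genes. For the 37 that share is not given here, so the 37 is not read against 8.51%. For the interaction the median ran from 0.01 to 0.14 with 0 genes called. The causes of these moves were not tested. The number of arrays limits the precision. Some probe sets are dim, such as the second of TYMS at a mean level of 4.17, below the 30th percentile of probe set means, 4.91.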
